A study of Mus musculus and Rattus norvegicus with 36 samples.

Results

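Bile acid transporters and the nuclear receptors that regulate them were followed in liver of rats and in liver and kidney of mice fed graded levels of dietary selenium (Se). The genes are Slc10a1, Slco1a1, Slco1a4, Slco1b2, Abcb11, Abcb4, Slc51a, Slc51b, Nr1h4 and Nr0b2, and every probe set annotated to one of these 10 symbols was taken. The mouse array held 16 such probe sets for 10 genes among 45037 probe sets, and the rat array 11 for 9 genes among 31042. Over the whole series, 18193 genes had a probe set of their own on the mouse array and 14217 on the rat array. No rat probe set carried the symbol Slc51b. None of the 27 probe sets had a second gene symbol. Of several probe sets for a gene, the brightest on average in a fit stood for the gene.

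The 36 Affymetrix arrays each held RNA of one animal's tissue, with 3 arrays in a group. Male weanling wild-type mice of a mainly C57 black background ate a Se-deficient torula-yeast diet for 35 days, either alone or with selenite to 0.05 μg or 0.2 μg of Se per g of diet, and they gave 9 liver and 9 kidney arrays. Male weanling Holtzman rats ate their diets for 28 days and gave 18 liver arrays. Rat study 2 gave arrays for a Se-deficient diet and diets of 0.24, 2 and 5 μg Se per g (12 arrays). Rat study 1 gave them for diets of 0.8 and of 0.08 μg Se per g (6 arrays). Each study also fed diets that have no arrays here. Diets are named below by these amounts, as 5 μg Se. All animals, the Se-adequate controls included (0.2 μg Se for mice, 0.24 for rats), shared a basal diet enriched with vitamin E and methionine, and livers were perfused before they were frozen. The labels do not give the rat study, which was taken from the study's text. Diets of different rat studies are only set side by side, since study and diet cannot be told apart across them.

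Levels are deposited log2 signals, on which a difference of 1 is a 2-fold change, and differences are log2 differences of group means. A gene was called when limma's adjusted p, over all probe sets of the array, was below 0.05. In a piece of tissue, fewer cells of a type and less RNA per cell cannot be told apart. The labelled tissues carried their markers: the summed linear signal of 8 measured hepatocyte genes was 135968 to 145457 in mouse liver and 7606 to 12748 in mouse kidney, and that of 9 kidney tubule and glomerulus genes was 546 to 720 in liver and 66976 to 73263 in kidney. One rat array stood apart. Replicate 1 at 2 μg Se had 1964 probe sets over 2-fold away from the average Se-adequate rat, where the other rat arrays had 35 to 839. The low end of that range, 35 to 57, comes from the Se-adequate arrays that form the average, and the range includes rat study 1. Differences that use the 2 μg Se group are therefore given without replicate 1 as well where a gene is described. That array also enters the other comparisons of rat study 2 through the shared spread, and they keep it unless stated.

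Bile acids circulate between liver and intestine, and hepatocytes move them mainly from blood into bile. Slc10a1 (Ntcp) takes conjugated bile acids up from blood together with sodium, while Slco1a1, Slco1a4 and Slco1b2, the rodent Oatp carriers, take up bile acids, hormones and drugs without sodium. Abcb11 (Bsep) exports bile salts across the canalicular membrane into bile, and Abcb4 (Mdr2) moves phosphatidylcholine there. Slc51a and Slc51b form the Ost carrier, which lets bile acids out across the basolateral membrane and is known best from ileum and kidney. Nr1h4 (Fxr) is the nuclear receptor that binds bile acids, and Nr0b2 (Shp), one of its textbook targets, is a repressor without a DNA-binding domain that acts on Cyp7a1, the rate-limiting enzyme of bile acid synthesis.

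Fxr and related nuclear receptors bind copies of the hexamer AGGTCA, and Fxr is known to bind an inverted repeat of it with 1 base between the copies. RefSeq sequence upstream of the transcription start was at hand for the mouse (GRCm38.p6), where all 10 genes matched with 11 promoters. The 250 bases before the start were searched on both strands for that inverted repeat, AGGTCANTGACCT, with up to 1 mismatch, for the half-site AGGTCA, for TCAAGG, the core bound by Nr5a2, and for GTTAAT, a half-site of the Hnf1 factors. The inverted repeat was found in 26 of all 32851 promoters (0.0791%), among them those of Abcb11 and Slco1b2. The half-site lay in 14% of all promoters, TCAAGG in 12.5% and GTTAAT in 6.43%. AGGTCA or its reverse complement TGACCT also lay in 1 of the 2 Slc10a1 promoters and in those of Slco1a1, Slc51a, Slc51b and Nr1h4, and it forms part of the inverted repeat in Abcb11 and Slco1b2. GTTAAT also lay in the Nr1h4 promoter. None of the motifs was found for Slco1a4 or Abcb4.

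The promoters of Abcb11 (chr2:69342617-69342866, minus strand), Slco1b2 (chr6:141629268-141629517, plus strand) and Nr0b2 (chr4:133553126-133553375, plus strand) are shown because the first 2 hold the inverted repeat and the third belongs to the member whose level differed most between rat diets. They run 5′ to 3′ towards the start, with matches in capitals: the inverted repeat in Abcb11 and Slco1b2, GTTAAT in Slco1b2 and 2 copies of TCAAGG in Nr0b2.
Abcb11: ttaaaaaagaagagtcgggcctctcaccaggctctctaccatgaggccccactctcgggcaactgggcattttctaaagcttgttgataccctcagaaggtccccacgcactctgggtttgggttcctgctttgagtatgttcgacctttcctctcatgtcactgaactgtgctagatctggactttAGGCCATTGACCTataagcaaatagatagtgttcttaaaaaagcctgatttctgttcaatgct
Slco1b2: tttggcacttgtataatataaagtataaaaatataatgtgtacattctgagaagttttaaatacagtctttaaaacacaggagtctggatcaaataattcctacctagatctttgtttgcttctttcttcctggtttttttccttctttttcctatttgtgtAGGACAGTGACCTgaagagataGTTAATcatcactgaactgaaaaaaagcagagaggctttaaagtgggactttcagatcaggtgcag
Nr0b2: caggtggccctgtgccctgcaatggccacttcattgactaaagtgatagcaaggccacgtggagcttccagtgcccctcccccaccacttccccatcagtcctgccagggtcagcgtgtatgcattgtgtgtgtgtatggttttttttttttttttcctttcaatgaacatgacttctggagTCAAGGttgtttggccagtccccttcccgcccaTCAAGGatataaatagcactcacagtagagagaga

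The Abcb11 match, AGGCCATTGACCT, lies 63 to 51 bases before the start and the Slco1b2 match, AGGACAGTGACCT, 88 to 76 bases before it, each with 1 mismatch. The 2 copies of TCAAGG in Nr0b2 begin 68 and 35 bases before the start. These are matches of letters in mouse sequence, and the arrays measured no binding. Slco1b2, Slco1a4 and Slco1a1 all lie on mouse chromosome 6.

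In rat liver at 5 μg Se the 3 Oatp carriers lay below and Nr0b2 above their levels at 0.24 μg Se with no overlap between arrays, while Slc10a1, Abcb11, Abcb4, Slc51a and Nr1h4 overlapped. None of the 9 genes was called in this comparison by limma, against 2.82% of all probe sets (875 of 31042, with 2.21% higher and 0.609% lower). Of the 9, 4 had an unadjusted p below 0.05, where 14.7% of all probe sets and 2434 of 14217 genes did. Of those 14217 genes, 465 were called higher and 116 lower. The median difference of the 9 genes was −0.0684, beside −0.00442 over the 14217 genes measured. Over all probe sets 23.6% did not overlap, 11.1% higher and 12.5% lower, where the members' 11 probe sets had 1 higher and 5 lower. Those 5 belong to 3 genes. Against 2 μg Se, Nr0b2 was called.

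**Figure D1:**
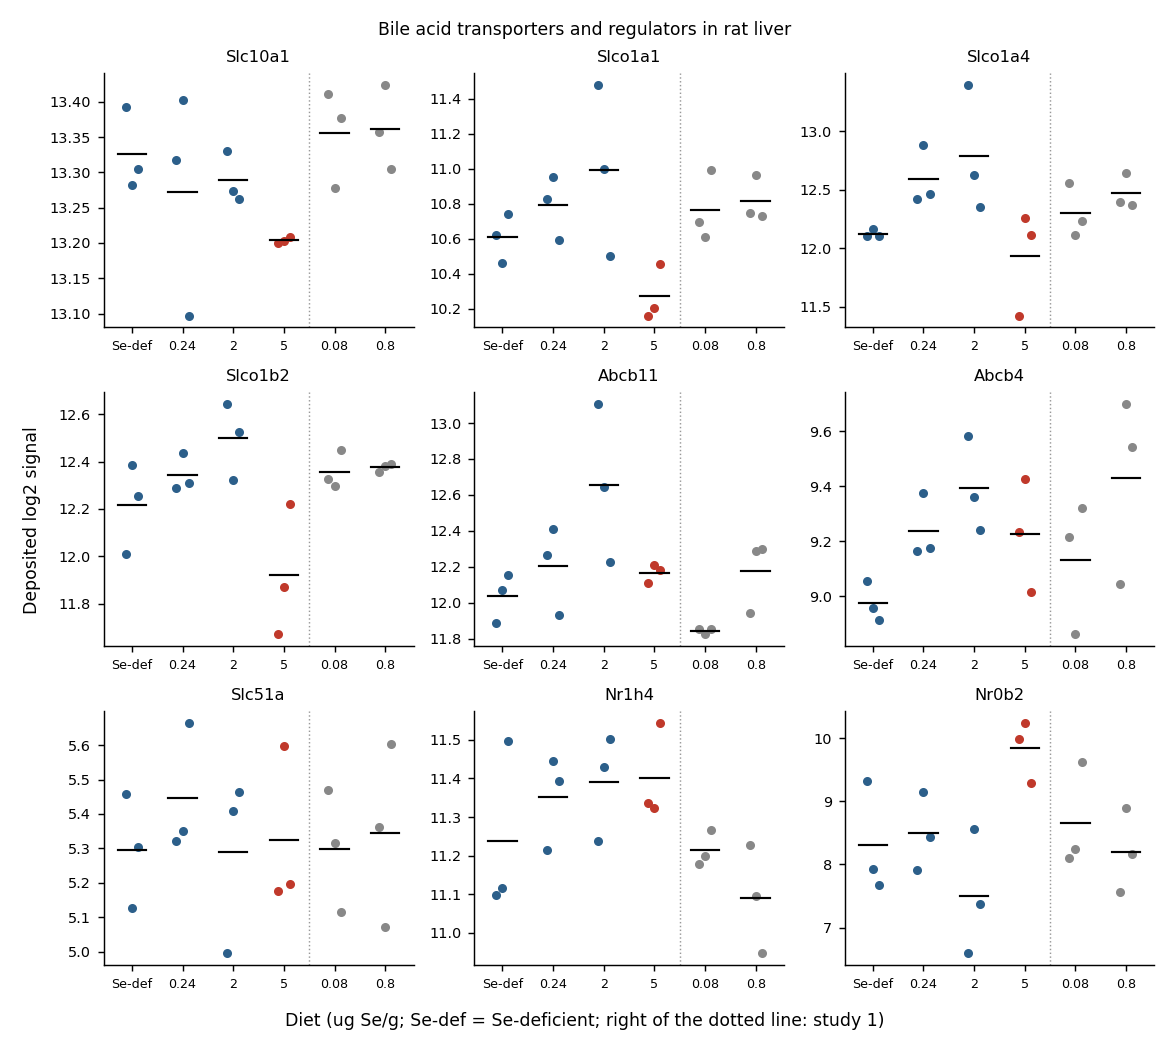
Deposited log2 signal (vertical axes, each with its own range and not starting at 0) of the 9 genes in each rat liver array by diet in μg Se (horizontal axes). Points are single arrays, 3 per diet, bars are their means, the 5 μg Se arrays are red and rat study 1 is grey. At 5 μg Se Nr0b2 reached 9.30 to 10.25, above all arrays at 0.24 and 2 μg Se, and Slco1a1 10.16 to 10.46, below all of them.

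Among the uptake carriers, Slc10a1 (1368609_at) stayed within a narrow range. Its level was 13.32, 13.40 and 13.10 at 0.24 μg Se, 13.33, 13.27 and 13.26 at 2 μg Se and 13.20, 13.20 and 13.21 at 5 μg Se. The 5 μg Se arrays lay within the range of the 0.24 arrays and just below those at 2. The difference was −0.07 against 0.24 μg Se (95% interval −0.27 to 0.13, adjusted p = 0.80) and −0.08 against 2 μg Se (95% interval −0.29 to 0.12, adjusted p = 0.65). Without replicate 1 at 2 μg Se the latter was −0.06 (adjusted p = 0.86).

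Slco1a1 (1387567_at), a carrier of bile acids and steroid conjugates, had levels of 10.83, 10.95 and 10.59 at 0.24 μg Se and 10.16, 10.20 and 10.46 at 5 μg Se. All 5 μg Se arrays lay below the lowest control. At 2 μg Se the levels were 11.48, 11.00 and 10.50, the widest spread of the diets in this study, with replicate 1 on top. The mean at 5 μg Se was 1.43-fold lower than at 0.24 (difference −0.52, SE 0.20, adjusted p = 0.26) and 1.65-fold lower than at 2 (difference −0.72, SE 0.20, adjusted p = 0.077). Without replicate 1 at 2 μg Se the latter difference was −0.48 (adjusted p = 0.23). Leaving out single arrays gave limma's adjusted p of 0.083 to 0.52 for the difference from 0.24.

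Slco1a4 (1387093_at), the Oatp also known for digoxin uptake, had 12.42, 12.89 and 12.47 at 0.24 μg Se, 13.40, 12.63 and 12.35 at 2 μg Se and 11.43, 12.26 and 12.12 at 5 μg Se. The 5 μg Se arrays again lay below every array of both other diets. The means differed 1.58-fold from 0.24 (difference −0.66, SE 0.26, adjusted p = 0.27) and 1.81-fold from 2 μg Se (difference −0.86, SE 0.26, adjusted p = 0.092). Without replicate 1 at 2 μg Se the latter was −0.56 (adjusted p = 0.29). The other rat probe set of Slco1a4, 1387094_at, gave −0.88 (SE 0.31, adjusted p = 0.20) and −1.05 (SE 0.31, adjusted p = 0.087), in the same order and also with no overlap, and the latter was −0.66 (adjusted p = 0.26) without replicate 1 at 2 μg Se.

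Slco1b2 is the Oatp that rodent hepatocytes share in function with the human OATP1B carriers. Probe set 1387679_at read 12.29, 12.44 and 12.31 at 0.24 μg Se, 12.64, 12.32 and 12.53 at 2 μg Se and 11.67, 11.87 and 12.22 at 5 μg Se. Its groups did not overlap, and the difference was −0.42 (SE 0.15, adjusted p = 0.19) against 0.24 and −0.58 (SE 0.15, adjusted p = 0.059) against 2 μg Se. The second probe set, 1369746_a_at, read 11.59, 11.93 and 11.65 at 0.24 μg Se, 12.42, 12.03 and 11.92 at 2 μg Se and 10.68, 10.90 and 11.44 at 5 μg Se. Its difference was −0.72 (SE 0.20, adjusted p = 0.099) against 0.24 and −1.12 (SE 0.20, adjusted p = 0.019) against 2 μg Se, so it was called in the latter while the probe set that stands for the gene was not. Without replicate 1 at 2 μg Se the latter differences were −0.97 (adjusted p = 0.065) for the second probe set, which ended its call, and −0.50 (adjusted p = 0.19) for the first. Calls over all probe sets fell there from 1037 to 238. The Slco1 genes are close paralogs, and how far their probe sets share signal was not tested.

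The canalicular exporters overlapped between 5 and 0.24 μg Se. Abcb11 (1368769_at) had 12.26, 12.41 and 11.93 at 0.24 μg Se and 12.11, 12.21 and 12.18 at 5 μg Se, all within the control range, with a difference of −0.03 (95% interval −0.46 to 0.39, adjusted p = 0.96). At 2 μg Se it had 13.11, 12.64 and 12.22, a mean 0.46 above 0.24 μg Se (SE 0.19, adjusted p = 0.32), and replicate 1 gave the highest Abcb11 level of all rat arrays. That difference was 0.23 (adjusted p = 0.82) without replicate 1 and 0.67 (adjusted p = 0.019) without replicate 3. Abcb4 (1369161_at) had 9.16, 9.38 and 9.18 at 0.24 μg Se and 9.23, 9.43 and 9.02 at 5 μg Se, and the difference was −0.01 (95% interval −0.29 to 0.26, adjusted p = 0.98).

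The basolateral exporter subunit Slc51a (1378288_at) read 4.99 to 5.67 over all 12 arrays of rat study 2, and its difference at 5 μg Se against 0.24 was −0.12 (95% interval −0.48 to 0.23, adjusted p = 0.80). The median of a rat array was 6.24 to 6.29.

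Of the regulators, Nr1h4 (1369073_at) had 11.21, 11.45 and 11.39 at 0.24 μg Se and 11.34, 11.32 and 11.54 at 5 μg Se. These overlapped, and the difference was 0.05 (95% interval −0.23 to 0.33, adjusted p = 0.91). Nr0b2 (1368376_at), in contrast, had the largest span of diet means among the 9 genes, 2.33 log2 units, where the other 8 spanned 0.12 to 0.86. It read 7.91, 9.14 and 8.43 at 0.24 μg Se, 6.59, 8.56 and 7.37 at 2 μg Se, and 9.98, 10.25 and 9.30 at 5 μg Se. All 3 arrays at 5 μg Se lay above all arrays of both other diets, and the array that stood apart, replicate 1 at 2 μg Se, was the lowest of all.

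The mean of Nr0b2 at 5 μg Se was 2.55-fold that at 0.24 (difference 1.35, SE 0.53, adjusted p = 0.25). Against 2 μg Se Nr0b2 rose 5.04-fold (difference 2.33, SE 0.53, adjusted p = 0.039). It was the only one of the 9 genes called, against 3.34% of all probe sets in that comparison (2.13% higher and 1.21% lower). Of the 9 genes, 5 had an unadjusted p below 0.05, where 24.2% of all probe sets and 4196 of 14217 genes did. Of those 14217 genes, 458 were called higher and 185 lower. Without replicate 1 at 2 μg Se the calls over all probe sets fell from 1037 to 238 of 31042. The difference of Nr0b2 was then 1.88 and was not called (adjusted p = 0.13). Nor was Nr0b2 called without replicate 1 or 2 at 5 μg Se (adjusted p = 0.14 for each). Leaving out replicate 2 or 3 of the Se-deficient rats or replicate 1 or 3 at 0.24 μg Se, which enter through the shared spread, also ended the call (adjusted p = 0.053 to 0.059), as did a fit of the 2 diets alone (adjusted p = 0.17). Without overlap between 5 and 2 μg Se lay 1 gene higher and 5 lower of the 9, with 21.2% of all probe sets free of overlap, 10.6% higher and 10.5% lower. The 5 were Slco1a1, Slco1a4, Slco1b2, Abcb11 and Slc10a1. Abcb11 differed by −0.49 (SE 0.19, adjusted p = 0.15), and by −0.27 (adjusted p = 0.51) without replicate 1 at 2 μg Se. Since both comparisons use the same 5 μg Se arrays, they are not independent.

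**Figure D2:**
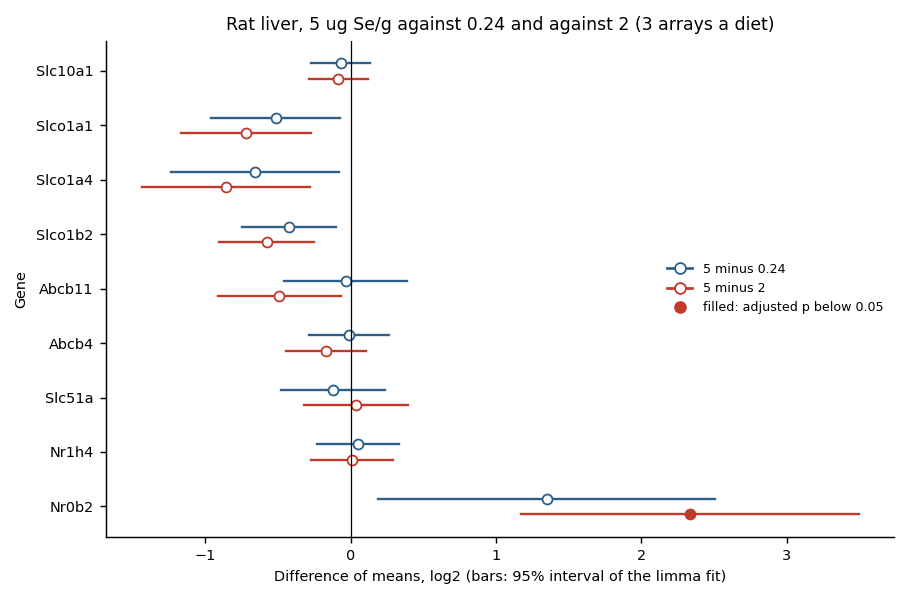
Difference of means on the log2 scale (horizontal axis) for the 9 genes (vertical axis) in rat liver at 5 μg Se against 0.24 (blue) and against 2 μg Se (red), with 95% intervals of the limma fit as lines and a filled point where the adjusted p was below 0.05. Nr0b2 lies at 1.35 and 2.33 and only the latter is filled, the 3 Slco genes lie between −0.42 and −0.86, and Slc10a1 lies at −0.07 and −0.08.

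The genes whose levels followed Nr0b2 most closely over the 12 arrays of rat study 2 were S100a6, S100a11 and Mgp. After each gene's mean was taken off, their root mean square distance to Nr0b2 was 0.445, 0.520 and 0.545 log2 units, where Nr0b2 itself varied by 1.05 and the median distance over 14216 genes was 1.06. S100a6 and S100a11 are calcium-binding proteins and Mgp is matrix Gla protein. All points share the same 12 arrays, 3 to a diet.

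Markers of other cells also differed at 5 μg Se, where 465 of all 14217 genes were called higher and 116 lower than at 0.24. None of 9 measured hepatocyte markers was called against 0.24 μg Se, and their summed linear signal lay between 163083 and 165144 at 5 μg Se and between 161583 and 168106 in the controls. Of 8 stellate cell and fibroblast genes 3 rose (Col1a1, Col1a2 and Des) and 2 fell (Lrat and Reln), with sums of 5868 to 8736 at 5 and 6042 to 8721 at 0.24 μg Se. Of 7 cholangiocyte genes 1 rose (Krt19, difference 2.63), with sums of 1451 to 4567 against 910 to 3436. Of 4 measured endothelial genes Pecam1 rose, with sums of 4477 to 6065 against 5076 to 6517, and of 7 Kupffer cell and macrophage genes Clec4f fell, with sums of 5999 to 6933 against 7008 to 9332. Their part in the values of Nr0b2 and the Slco genes was not tested. The 3′ to 5′ log2 difference of the Gapdh control lay between 0.13 and 0.26 at 5 μg Se and between 0.17 and 0.24 in the Se-adequate rats. That of the Actb control was 1.72 in replicate 3 at 5 μg Se and 1.38 to 1.54 in the other 11 arrays of rat study 2. This replicate had the lowest Nr0b2 and the highest Slco1a1 and Slco1b2 (1387679_at) levels of its diet. Without it, the differences from 0.24 μg Se were 1.62 for Nr0b2 (adjusted p = 0.24), −0.61 for Slco1a1 (adjusted p = 0.26) and −0.57 for Slco1b2 (adjusted p = 0.054). Against 2 μg Se they were 2.61 (adjusted p = 0.041), −0.81 (adjusted p = 0.089) and −0.73 (adjusted p = 0.02, a call). These fits kept replicate 1 at 2 μg Se, which stood apart. With that array left out and all 5 μg Se arrays kept, the differences were 1.88, −0.48 and −0.50 (adjusted p = 0.13, 0.23 and 0.19).

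Other genes of bile acid handling were taken from 3 lists. Among 21 measured transporters of bile constituents at 5 against 0.24 μg Se, 3 rose and 1 fell, and the list's median difference was −0.10. Over all 14217 genes, 465 were called higher and 116 lower. Abcc3 and Abcc4 are basolateral efflux pumps that carry conjugated bile acids back to blood. Abcc3 (1369698_at) had 7.74, 7.59 and 6.75 at 0.24 μg Se and 10.78, 9.51 and 9.11 at 5 μg Se, and rose 5.44-fold (difference 2.44, SE 0.36, adjusted p = 0.0046). Abcc4 (1379402_at) had 6.62, 6.14 and 6.03 at 0.24 μg Se and 7.82, 7.33 and 7.73 at 5 μg Se, and rose 2.58-fold (difference 1.36, SE 0.19, adjusted p = 0.0036). Both kept their call under all 20 alternatives tried. Both also lay higher in Se-deficient than in control rats without overlap, Abcc3 at 9.50, 9.31 and 9.69 and Abcc4 at 7.0, 7.11 and 6.78, but neither was called there (adjusted p = 0.24 and 1.0).

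Slco3a1, a widely expressed carrier of the same family as the Oatp members, rose by 0.57 (1373734_at, SE 0.14, adjusted p = 0.049), a call kept in 7 of 20 alternatives, and its other probe set 1370571_at had 0.31 (adjusted p = 0.17). Slc22a7, the organic anion carrier Oat2 of the basolateral membrane, fell by 0.49 (1398267_at, SE 0.10, adjusted p = 0.023), from 12.11, 12.04 and 12.13 at 0.24 to 11.39, 11.69 and 11.74 at 5 μg Se. Its call was lost in 6 of 20 alternatives, with adjusted p up to 0.086.

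None of 17 measured genes of bile acid synthesis and conjugation was called at 5 against 0.24 μg Se by limma, and their median was −0.10. Of the 17, 5 had an unadjusted p below 0.05, as had 2434 of all 14217 genes. Cyp7a1 (1368458_at) had 7.49, 8.59 and 7.26 at 0.24 μg Se, 10.16, 8.41 and 9.09 at 2 μg Se and 10.33, 9.89 and 9.54 at 5 μg Se. Its 5 μg Se arrays lay above all control arrays, a 4.42-fold difference of means (2.14, SE 0.56, adjusted p = 0.07). Nr0b2 and Cyp7a1 were thus both above the control arrays without overlap at 5 μg Se, whereas in replicate 1 at 2 μg Se Cyp7a1 was the highest and Nr0b2 the lowest of its diet. Acox2, which shortens the side chain of bile acid precursors in peroxisomes, differed by −0.59 (SE 0.18, adjusted p = 0.12).

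Of 25 measured other regulators 1 fell, where 116 of all 14217 genes were called lower, and the list's median was −0.11. Nr1h3 (Lxr alpha), the oxysterol receptor, had 10.35, 10.45 and 10.17 at 0.24 μg Se and 9.80, 9.71 and 9.94 at 5 μg Se (1387365_at). It fell by 0.51 (SE 0.10, adjusted p = 0.016), and the call was lost in 5 of 20 alternatives, with adjusted p up to 0.081.

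**Figure D3:**
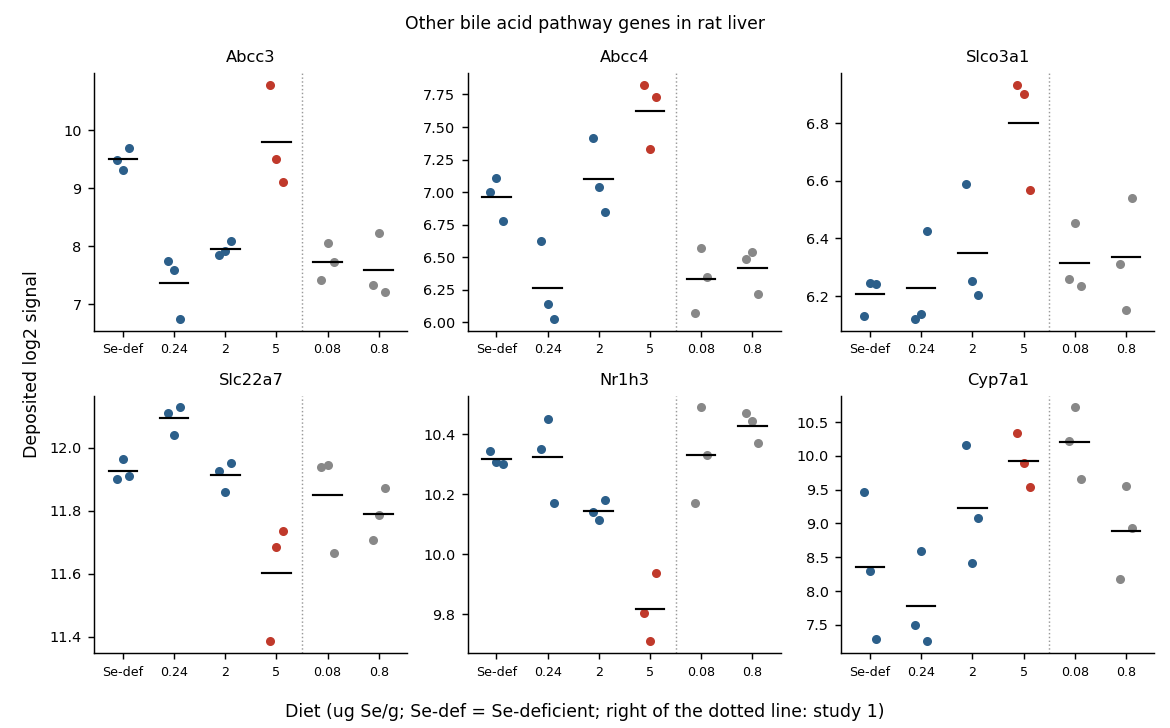
Deposited log2 signal (vertical axes, each with its own range and not starting at 0) of 6 other genes of bile acid handling in each rat liver array by diet in μg Se (horizontal axes). Points are single arrays, 3 per diet, bars are their means, the 5 μg Se arrays are red and rat study 1 is grey. Abcc3 reached 9.11 to 10.78 at 5 μg Se and 9.31 to 9.69 in Se deficiency, against 6.75 to 7.74 at 0.24 μg Se.

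Against 2 μg Se, 458 of all 14217 genes in rat liver at 5 μg Se were called higher and 185 lower. The genes of these lists gave 1 call, Abcc3, which rose by 1.85 (SE 0.36, adjusted p = 0.026) from levels of 7.85, 7.93 and 8.10. Without replicate 1 at 2 μg Se its difference was 1.79 (adjusted p = 0.08), and none of the listed genes was called. In that fit 238 of 31042 probe sets were called, where 1037 were with all arrays. The 2 genes of synthesis with the smallest p were Cyp39a1, an oxysterol hydroxylase, at −0.63 (adjusted p = 0.087) and Cyp8b1, the sterol 12-alpha-hydroxylase, at 0.90 (adjusted p = 0.11). Among regulators Nr3c1, the glucocorticoid receptor, had −0.60 (adjusted p = 0.053) and Nr1h3 −0.33 (adjusted p = 0.083). Without that replicate Cyp39a1 had −0.36, Cyp8b1 0.62, Nr3c1 −0.46 and Nr1h3 −0.33 (adjusted p = 0.20, 0.36, 0.17 and 0.20).

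Rats at 2 μg Se had none of the 9 genes called against 0.24 μg Se by limma, where 0.00322% of all probe sets were called. Of the 9, 1 (Abcb11) had an unadjusted p below 0.05, as had 15.3% of all probe sets and 2653 of 14217 genes. The members' differences ran from −0.99 for Nr0b2 (SE 0.53, adjusted p = 0.36) to 0.46 for Abcb11, with a median of 0.153 beside −0.0403 over all genes. Without replicate 1 the median was −0.00398, beside −0.0238 over all genes, and the differences of these 2 genes were −0.53 (adjusted p = 0.85) and 0.23 (adjusted p = 0.82). No member's arrays were free of overlap in either direction, against 12.8% of all probe sets (5.85% higher and 6.9% lower). No gene of the 3 pathway lists was called either, Cyp7a1 differing by 1.44 (SE 0.56, adjusted p = 0.32), Hnf4a by 0.61 and Abcc4 by 0.84 (adjusted p = 0.32 for both). Without replicate 1 these were 0.97, 0.44 and 0.68 (adjusted p = 0.81 for each).

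In Se-deficient rats none of the 9 genes was called against 0.24 μg Se by limma (0.00322% of all probe sets), and none had an unadjusted p below 0.05 (3.4% of all probe sets). The differences ran from −0.47 to 0.05, 8 of 9 below 0, with a median of −0.165 beside 0.0041 over all genes. Slco1a4 had 12.10, 12.16 and 12.11 in Se deficiency, a tight group below the 12.42 to 12.89 of the controls (difference −0.47, SE 0.26, adjusted p = 1.0). Abcb4 had 9.06, 8.96 and 8.91 against 9.16 to 9.38 (difference −0.26, SE 0.13, adjusted p = 1.0). These 2 of 9 genes had no overlap, both lower, where 11.6% of all probe sets had none (5.75% higher and 5.89% lower). Nr0b2, with 9.32, 7.92 and 7.68, overlapped the controls (difference −0.19, 95% interval −1.35 to 0.97). Slc27a5, the bile acid-CoA ligase of conjugation, had a difference of −0.51 (SE 0.17, adjusted p = 1.0).

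Between 0.8 and 0.08 μg Se in rat study 1 none of the 9 genes was called by limma, as was no probe set of the array (0%, with 1421 or 4.58% at an unadjusted p below 0.05, and 1 of the 9 genes). Abcb11 was the single member without overlap, at 11.94, 12.29 and 12.30 on 0.8 μg Se and 11.85, 11.82 and 11.85 on 0.08 μg Se, a difference of 0.33 (SE 0.12, unadjusted p = 0.022 in the limma fit, adjusted p = 0.97), while 9.46% of all probe sets did not overlap (4.2% higher and 5.26% lower). Nr0b2 had 7.56, 8.89 and 8.16 on 0.8 and 8.11, 8.25 and 9.62 on 0.08 μg Se, which overlapped (difference −0.46, 95% interval −1.46 to 0.54). Cyp7a1 lay lower without overlap, at 8.17, 9.55 and 8.93 against 10.21, 10.72 and 9.66 (difference −1.31, SE 0.36, adjusted p = 0.97). Set beside rat study 2, all 6 of these Nr0b2 levels lay below the 9.98 and 10.25 of replicates 1 and 2 at 5 μg Se, and 1 of them, 9.62, lay above the 9.30 of replicate 3.

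Levels of most members overlapped between the diets in mouse liver. None of the 10 genes was called in Se deficiency against 0.2 μg Se by limma (0.0222% of all probe sets, 0.00666% higher and 0.0155% lower), and 1, Slco1a4, had an unadjusted p below 0.05 (4.63% of all probe sets). Differences ran from −0.55 to 0.15, with a median of −0.026 beside −0.0125 over all genes. Slco1a4 (1420405_at) had 8.29, 8.25 and 8.37 in Se deficiency, 9.15, 8.52 and 8.75 at 0.05 μg Se and 9.33, 8.65 and 8.58 at 0.2 μg Se. The Se-deficient arrays lay below all others, but the spread was wide among controls, and the difference was −0.55 (SE 0.20, adjusted p = 0.93). It was the only member gene without overlap, where 7.61% of all probe sets had none (3.45% higher and 4.15% lower).

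The transporters of both poles had narrow intervals in Se-deficient mouse liver. Slc10a1 (1424898_at) differed by −0.03 (95% interval −0.20 to 0.14), Slco1b2 (1452494_s_at) by −0.01 (95% interval −0.15 to 0.14), Abcb11 (1449817_at) by −0.07 (95% interval −0.31 to 0.16) and Abcb4 (1449818_at) by −0.04 (95% interval −0.33 to 0.24). Of the other Slco1b2 probe sets, 1427826_a_at had the opposite sign, at 0.15 (95% interval −0.02 to 0.31), and the rest lay between −0.10 and −0.05. The second Slc10a1 probe set, 1450261_a_at, had 0.02 (95% interval −0.18 to 0.21). Slco1a1 (1420379_at) had a wider interval, with a difference of −0.24 (95% interval −0.64 to 0.16) and replicate 2 at 10.77 below the other liver arrays at 11.37 to 11.70. Nr0b2 (1449854_at) had the widest, 0.15 (95% interval −0.65 to 0.94). It varied as much within diets as between them, at 9.78, 8.89 and 10.07 in Se deficiency, 10.35, 9.12 and 9.21 at 0.05 μg Se and 9.88, 9.31 and 9.11 at 0.2 μg Se. Nr1h4 (1419105_at) differed by 0.03 (95% interval −0.17 to 0.24).

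At 0.05 against 0.2 μg Se no member gene and no probe set of mouse liver was called by limma (0%, with 878 probe sets, 1.95%, and no member gene at an unadjusted p below 0.05). The members' differences ran from −0.10 to 0.12. Slco1b2 lay lower without overlap by 0.09 log2 units (12.98, 13.02 and 12.97 against 13.08, 13.07 and 13.10, adjusted p = 1.0), where 5.46% of all probe sets did not overlap (3.06% higher and 2.4% lower).

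Among the pathway lists in mouse liver, Abcc4 (1443870_at) was the 1 gene called in Se deficiency, with 9.50, 8.63 and 8.93 against 7.54, 6.99 and 6.86 (difference 1.89, SE 0.22, adjusted p = 0.023), a call lost in 7 of 17 alternatives, with adjusted p up to 0.23. Cyp7a1 had 9.12, 8.97 and 8.05 against 9.89, 9.53 and 9.51, lower without overlap in a difference of −0.93 (SE 0.29, adjusted p = 0.93), and Cyp7b1, the oxysterol 7-alpha-hydroxylase, had 0.57 (SE 0.16, adjusted p = 0.93). The hepatocyte factors Onecut1 and Foxa2 had −0.92 and −0.52 (adjusted p = 0.93 for both). None of 8 hepatocyte markers was called, and none of 8 Kupffer cell and macrophage genes, although all 8 of the latter had means above the controls. At 0.05 μg Se all 8 did as well, with none called and a larger median difference (0.383, beside 0.171 in Se deficiency). Over all genes, 8177 of 18193 had means above the controls in Se deficiency and 9240 at 0.05 μg Se.

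**Figure D4:**
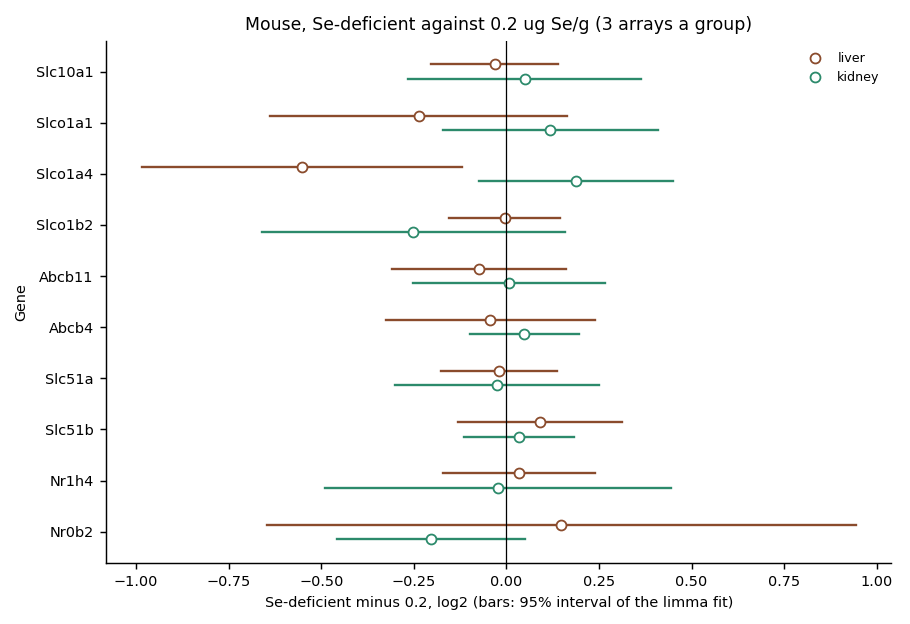
Difference between Se-deficient and 0.2 μg Se mice on the log2 scale (horizontal axis) for the 10 genes (vertical axis) in liver (brown) and kidney (green), with 95% intervals of the limma fit as lines and 3 arrays a group. The probe sets are those that stand for the genes in liver. Slco1a4 lies at −0.55 in liver and 0.19 in kidney, and all points are open, since none was called.

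No member gene was called in kidney in Se deficiency by limma (0.00666% of all probe sets), nor at 0.05 μg Se (0%), and none had an unadjusted p below 0.05 in either, where 5.42% and 2.91% of all probe sets did (1311 in the latter). No member was free of overlap in kidney in Se deficiency, where 8.66% of all probe sets were (4.41% higher and 4.25% lower), or at 0.05 μg Se, where 6.48% were (3.33% higher and 3.15% lower). Slco1a4 had 7.41, 7.83 and 7.70 in Se-deficient kidney and 7.29, 7.47 and 7.61 at 0.2 μg Se (difference 0.19, SE 0.12, adjusted p = 0.89). The difference between its responses in liver and kidney was −0.74 (SE 0.25, adjusted p = 0.83), and none of the 10 genes was called in that test (0.00222% of all probe sets), with 1 at an unadjusted p below 0.05 (5.79% of all probe sets). The labels do not say whether liver and kidney arrays came from the same mice. The study's methods give 3 mice a diet and both tissues from 3 a diet, which implies the same mice. Which arrays belong to 1 mouse is not given, and the test above took all arrays as independent. Liver and kidney arrays of the same number deviated together over probe sets at 0.05 μg Se (r = 0.212, 0.249 and 0.212 by number) and at 0.2 μg Se (r = 0.241, 0.116 and 0.214), but not in Se deficiency (r = −0.114, 0.0313 and −0.0631). With arrays paired by number the difference for Slco1a4 had an adjusted p of 0.71, and no member was called.

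Levels in liver and kidney were set side by side without a test, because each tissue was processed on its own. Over 9 arrays each, 47.7% of all probe sets did not overlap between the tissues, with 20.9% higher in liver and 26.8% higher in kidney. At 0.2 μg Se, where 14.8% of all probe sets had means over 2-fold apart, Slc10a1 was 99.2-fold higher in liver (13.09 to 13.32 against 6.32 to 6.97 over all diets). Abcb11 was 110.5-fold higher in liver (11.75 to 12.15 against 4.92 to 5.38). Slco1b2 was 287-fold higher by 1452494_s_at, and its other 4 probe sets gave 2.35 to 215-fold in the same direction, so the size depends on the probe set. Kidney levels of Abcb11 and of this Slco1b2 probe set lay below the kidney array medians of 6.24 to 6.29 and those of Slc10a1 just above them, so the sizes of these ratios rest on weak kidney signals.

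Abcb4 was 7.64-fold, Nr0b2 5.57-fold and Slco1a4 2.63-fold higher in liver, each without overlap. The subunits of the Ost carrier were higher in kidney without overlap, Slc51a (1451481_s_at) 10.6-fold, at 9.51 to 10.05 against 6.31 to 6.46 in liver, and Slc51b (1454854_at) 4.58-fold, at 8.48 to 8.69 against 6.10 to 6.55. The liver levels of both lay near the liver array medians of 6.17 to 6.28, so these sizes rest on weak liver signals. Slco1a1 was 1.70-fold higher in kidney, and its second probe set 1449844_at 1.64-fold. Nr1h4 overlapped, at 9.77 to 10.07 in liver and 9.40 to 10.18 in kidney. Of the 3 Slco genes, 1 was thus higher in kidney and 2 in liver.

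**Figure D5:**
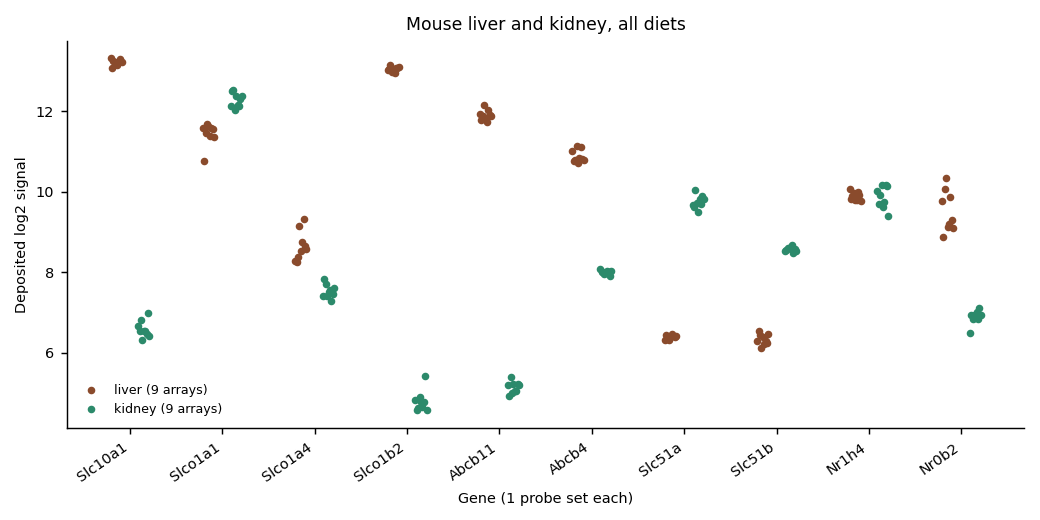
Deposited log2 signal (vertical axis) of 1 probe set for each of the 10 genes (horizontal axis) in 9 liver arrays (brown) and 9 kidney arrays (green) of mice on all 3 diets, each point 1 array. Liver and kidney are to be compared within a gene, not 1 gene with another. Slc10a1, Slco1b2 and Abcb11 lie above 11.7 in liver and below 7 in kidney, Slc51a and Slc51b lie higher in kidney, and Nr1h4 overlaps.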

How the data were processed

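Liver RNA of mice and rats and kidney RNA of mice was hybridised to 36 Affymetrix arrays. The deposited values are log2 signals, for which the authors' processing notes name GCRMA (version not given) and the study's methods RMA, run for each study and tissue alone. Arrays give no read depth, so their number, 3 a group, limits the precision. Values were used as deposited in limma 3.58.1 (R 4.3.3, lmFit and eBayes), 1 fit each for mouse liver, mouse kidney and the rat studies, plus 1 for the difference between mouse tissues, and all adjusted p are limma's with Benjamini-Hochberg adjustment over all probe sets but controls. With 3 arrays against 3, an exact permutation test cannot go below p = 0.1. The study's text gives each array of a group as 1 animal. Plots used Python 3.11.15 and matplotlib 3.10.9.

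The members and lists were chosen with earlier results of these data known. Pathway genes were named where called (up to 8 a list by p) and otherwise up to 2 with the smallest p. The scripts were tested on simulated data. Arrays of the same number deviated together in Se-deficient and 0.2 μg Se mouse liver (r = 0.462, 0.105 and 0.319 by number, over probe sets), a pairing seen in the data and not in the labels. Alternatives were smaller and larger fits, trend and robust settings, array weights, a filter on low signals, quantile normalization, a replicate block, another probe set per gene and leaving out each array. Rat promoters and proteins were not used here.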

Additional observations from a re-analysis of the deposited data

How the results depend on the processing

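The alternatives followed call counts and a few genes with a call or a small p, and none of these reversed in direction. The other genes were followed only without replicate 1 at 2 μg Se, where some uncalled ones turned in sign. There, Slco1a1, Slco1a4 and Slc10a1 went to −0.04, −0.10 and −0.00398 from 0.20, 0.20 and 0.02 at 2 against 0.24 μg Se, and Nr1h4 and Slc51a to −0.07 and −0.11 from 0.01 and 0.04 at 5 against 2 μg Se. The other Slco1a4 probe set, 1387094_at, went to −0.22 from 0.16 at 2 against 0.24 μg Se. Genes of the pathway lists turned there too, such as Abcb1a, to −0.03 from 0.39, and Cyp8b1, to 0.06 from −0.22. The number of member genes called stayed at 0 in every comparison but those named here. For 2 against 0.24 μg Se in rat liver, array weights called 1 gene, and leaving out single arrays gave 0 to 1, the 1 being Abcb11 without replicate 3 at 2 μg Se. For 5 against 0.24 μg Se, array weights called 3 genes (Slco1a1, Slco1b2 and Nr0b2, adjusted p = 0.0079, 0.039 and 0.04) and leaving out single arrays 0. For 5 against 2 μg Se, where Nr0b2 was the 1 gene called, a fit of these diets alone called 0, a fit of all rat arrays 4, array weights 5, the probe set with the lowest mean 2, and leaving out single arrays 0 to 5, with 5 without replicate 3 at 2 μg Se and 2 without replicate 3 at 5 μg Se. Calls among the genes of the 3 pathway lists changed over the settings as well. For these 3 comparisons in turn, leaving out single arrays gave 0 to 6, 2 to 9 and 0 to 13 of them. The other alternatives gave 0 to 23, 3 to 14 and 0 to 32. Without replicate 1 at 2 μg Se, 238 of all probe sets were called at 5 against 2 μg Se, where 1037 were with all arrays. At 2 against 0.24 μg Se, 2 were called without it and 1 with all arrays. Calls over all probe sets are not given for the other settings, so the counts there cannot be set against them. The cause of these changes in counts was not tested, and some estimates of array weights stopped before they converged. With the replicate block, 1 gene was called for 5 against 2 μg Se (Nr0b2, adjusted p = 0.047) and 0 elsewhere, so the block changed no member's call. It ended the call of Slco3a1 at 5 against 0.24 μg Se (adjusted p = 0.083). With 3 arrays a group, a gene whose replicates spread as Nr0b2's do had a standard error of 0.53 log2 units in rat liver.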
